A study of Mus musculus with 13 samples.

Results

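In this series, 10 genes of the Wnt pathway were followed in CD45- cells of the mouse thymus before and after total body irradiation (TBI): the ligands Wnt2, Wnt4, Wnt5a, Wnt5b and Wnt11, and the modulators Sfrp1, Sfrp2, Dkk3, Rspo3 and Kremen1. They were chosen by name, with earlier results of these data known, and make up 10 of the 53379 genes in the count table. All 10 passed the filter on low counts, which kept 19984 genes, and each had more than 3 counts, the floor of detection used here, in every library. Kremen1 encodes a membrane protein, so the set is not wholly secreted and is called ligands and modulators here.

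Polyadenylated RNA was sequenced in bulk from CD45- cells, which are the stroma of the organ: thymic epithelial cells (TECs), fibroblasts and endothelial cells. All mice were wild-type C57BL/6 and 2 months old, with 4 libraries at steady state and 3 at each of days 1, 4 and 7 after sublethal TBI, for which the methods of the study give 550 cGy. The labels call the steady-state mice untreated, whereas their columns name them as controls given phosphate-buffered saline (PBS), so they are named here as PBS day 1 replicate 2, PBS day 4 replicate 2, and PBS day 7 replicates 1 and 2, and their values are always given in that order. Nothing in the labels says whether a library came from 1 mouse or several, so p-values measure the spread between these libraries only.

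Wnt proteins are lipid-modified signals that act over short distances by binding Frizzled receptors together with coreceptors such as Lrp5 and Lrp6, which stabilizes β-catenin, or Ror2 and Ryk, which act without it. Secreted Frizzled-related proteins bind Wnt proteins outside the cell, Dickkopf proteins act on the coreceptors with the help of Kremen receptors, and R-spondins raise the number of receptors at the cell surface. In the thymus, Wnt4 is known to promote Foxn1 in TECs, and β-catenin with Tcf7 and Lef1 is needed by developing thymocytes.

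Total counts ran from 15721866 to 52056896 per library, with a median of 44078906. Fibroblast markers summed to 20914 to 149536 CPM (counts scaled to the normalized size of each library), TEC markers to 929 to 5097 CPM and endothelial markers to 963 to 1452 CPM, so all 3 cell types of the sort were represented. Blood lineages were represented as well, with 14 thymocyte markers summing to between 28.1 CPM at day 4 and 5670 CPM in day 7 replicate 2, and 8 erythroid markers to between 10.4 CPM at day 4 and 36997 CPM at steady state. Day 1 replicate 1 stood apart: on the first principal component of the deviations of libraries from the mean of their condition, which held 49.6% of that variance over 11459 genes, it lay at -79.4, and the other libraries lay between -31.7 and 50.4. Log2 differences of members from or to day 1 that are described below are therefore also given without it.

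Upstream sequences are shown for Sfrp2 and Wnt11, the members with the widest spread within conditions, whose levels also moved together across the libraries. RefSeq windows of 300 bases around a start site, on GRCm38.p6, were given for 5 of the 10 members, namely Wnt2, Wnt4, Wnt5b, Wnt11 and Sfrp2, in 8 windows. The 250 bases before the start site of Sfrp2 (chr3:83766071-83766320, plus strand) and of Wnt11 (chr7:98834862-98835111, plus strand) are shown, with a match to the core motif CTTTGA of Tcf/Lef factors, or to its reverse complement TCAAAG, in capitals.
Sfrp2: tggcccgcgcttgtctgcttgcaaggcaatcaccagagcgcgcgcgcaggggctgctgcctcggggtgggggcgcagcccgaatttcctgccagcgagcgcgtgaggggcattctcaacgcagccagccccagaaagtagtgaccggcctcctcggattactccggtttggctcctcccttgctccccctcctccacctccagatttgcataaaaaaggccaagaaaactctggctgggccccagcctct
Wnt11: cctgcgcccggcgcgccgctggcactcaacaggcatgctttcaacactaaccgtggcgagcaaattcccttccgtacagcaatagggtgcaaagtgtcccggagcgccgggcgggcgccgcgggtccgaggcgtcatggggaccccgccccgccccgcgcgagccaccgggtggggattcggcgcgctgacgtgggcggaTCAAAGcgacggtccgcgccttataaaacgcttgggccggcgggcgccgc

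The Wnt11 window held 1 match, on the minus strand, beginning 50 bases before the start site, and the Sfrp2 window held none. Of all 32817 RefSeq windows of this length, 16% held the motif on either strand, so a match is common and is given as a description only. Among the other members, 1 of 3 windows of Wnt5b held a match, and the windows of Wnt2 and Wnt4 and the second window of Wnt11 held none. The GC content of the whole windows of 300 bases was 66% for Sfrp2 and 71.3% for the Wnt11 window whose upstream part is shown, against a median of 52.7% over all windows.

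The levels of the members were compared per kilobase of the deposited exonic length (RPKM, which is CPM divided by that length), the scale on which genes can be set against each other. Sfrp2, a secreted Frizzled-related protein, had the highest mean over the 13 libraries at 217 RPKM ± 190 (SD). Dkk3, a divergent Dickkopf, followed at 86.6 RPKM ± 47.0 (SD). The Wnt proteins lay well under both, from 19.4 RPKM ± 8.11 (SD) for Wnt2 to 1.64 RPKM ± 0.69 (SD) for Wnt4, and the means of every condition kept Sfrp2, Dkk3, Wnt2 and Sfrp1 in ranks 1 to 4 and Wnt4 in rank 10.

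Neighbours in this order often did not differ beyond their spread. Sfrp2 was above Dkk3 in 9 of 13 libraries, with a log2 ratio of 0.69 ± 1.37 (SD). By contrast, Dkk3 was above Wnt2 in all 13, with a log2 ratio of 2.10 ± 0.46 (SD). The next steps, from Wnt2 to Sfrp1 (15.3 RPKM), from Wnt5a (8.42 RPKM) to Kremen1 (8.40 RPKM), and on through Wnt11 (6.62 RPKM), Wnt5b (3.72 RPKM) and Rspo3 (3.61 RPKM), had mean log2 ratios smaller than their SD, the largest being 0.52 ± 0.71 between Kremen1 and Wnt11. The other two steps were larger than their SD: Sfrp1 lay above Wnt5a in 11 libraries (0.81 ± 0.64) and Rspo3 above Wnt4 in all 13 (1.10 ± 0.62).

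Parts of 4 of the gene models are shared with another gene. The counting was done with default settings, which ignore strand and leave out reads that overlap several genes, so reads from those stretches may be missing and the levels of these genes may be understated. In Sfrp2 (chromosome 3, 83766321 to 83774316) 16.1% of the exonic bases are shared with Gm26771. The share was 13.1% in Rspo3 with Gm48159, 8.8% in Wnt11 (chromosome 7, 98835112 to 98855195) with Gm8398 and 4.58% in Wnt5a with Gm2670, and the other 6 members shared none.

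None of the 10 members passed an adjusted p of 0.05 in any comparison. In the test of any difference among the 4 conditions (edgeR's quasi-likelihood F-test with Benjamini-Hochberg adjustment over all 19984 genes, as for every adjusted p below), 6.66% of all genes passed and no member did, the adjusted p running from 0.364 for Wnt5a to 0.989 for Sfrp1. At an unadjusted p under 0.05 the count of members was again 0, against 24% of all genes. DESeq2 called none of the members in any of the 6 pairwise comparisons, its lowest adjusted p being 0.19. In bulk libraries, fewer cells of a type and less RNA per cell cannot be told apart, and this holds for every value below.

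**Figure D1:**
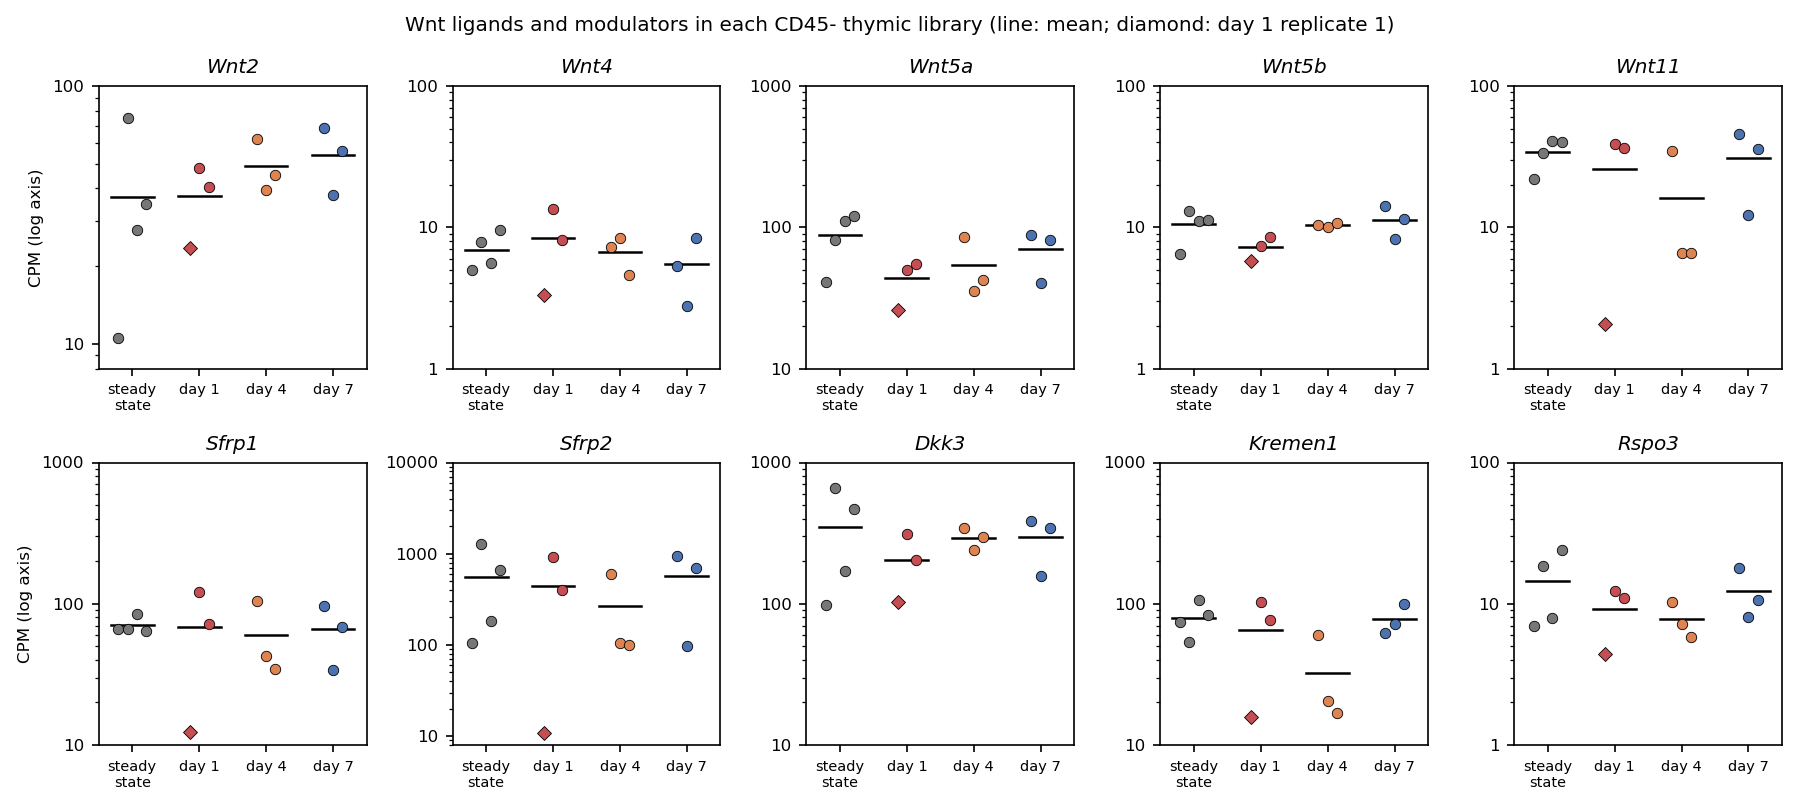
CPM (log axis) of the 10 members in each library, by condition, with the condition mean as a line and day 1 replicate 1 as a diamond. The conditions overlap for every member apart from Wnt5b at day 4 against day 1 and Kremen1 at day 7 against day 4, and the diamond is the lowest of the day 1 libraries in all 10 panels.

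Among the ligands, Wnt5a, which signals largely without β-catenin, had the lowest unadjusted p at day 1. Its level at steady state was 40.8, 81.6, 111 and 120.4 CPM. At day 1 it was 26.0, 49.8 and 55.2 CPM, at day 4 84.9, 35.3 and 42.0 CPM, and at day 7 88.2, 40.1 and 81.0 CPM. Of the steady-state libraries, 3 lay above all those of day 1 and PBS day 1 replicate 2 lay among them, so the groups overlapped. The mean at day 1 was 43.6 CPM ± 15.6 (SD, n = 3) against 88.4 CPM ± 35.7 (SD, n = 4), a fitted log2 difference of -1.02 with a 95% confidence interval of -1.96 to -0.07. The unadjusted p from edgeR's fit across all genes was 0.0373 and the adjusted p 0.259. Without day 1 replicate 1 the log2 difference of Wnt5a was -0.75, with an unadjusted p of 0.14 from the same kind of fit, and without PBS day 7 replicate 1 or 2 it was -0.84 and -0.83.

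Wnt5b, the close relative of Wnt5a, varied least of all members. Its steady-state values were 6.47, 13.1, 11.1 and 11.2 CPM, and those of day 1 were 5.74, 7.34 and 8.50 CPM. The day 4 libraries lay close together at 10.4, 10.1 and 10.7 CPM, and day 7 gave 14.2, 8.22 and 11.4 CPM. Every day 4 library was above every day 1 library, 1 of the 2 cases in which the libraries of a member did not overlap. The log2 difference of day 4 from day 1 was 0.53, with an interval of -0.12 to 1.18 and an adjusted p of 0.471 by edgeR, and 0.39 without day 1 replicate 1. Over all genes, the libraries of days 4 and 1 did not overlap for 26.3%.

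Wnt2, a ligand that can act through β-catenin, was spread most widely at steady state, with 10.5, 74.9, 27.7 and 34.8 CPM, a range of 7.13-fold. After TBI it was 23.5, 48.2 and 40.4 CPM at day 1, 62.1, 39.6 and 45.2 CPM at day 4, and 68.6, 37.6 and 56.0 CPM at day 7. All 9 values after TBI lay within the range of the steady-state libraries. The largest log2 difference of Wnt2 was 0.55 at day 7 against steady state, a fold of 1.46 with an interval of 0.704 to 3.04 and an adjusted p of 0.757 by edgeR.

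Wnt4, the least abundant of the 10, had 4.96, 7.80, 5.57 and 9.49 CPM at steady state. Values after TBI were 3.31, 13.5 and 8.19 CPM at day 1, 7.23, 8.34 and 4.61 CPM at day 4, and 5.29, 2.77 and 8.46 CPM at day 7. No 2 conditions were separate, and day 1 alone spanned 4.08-fold. It was the only member with a log2 difference below 0 at day 7 against day 4, at -0.29 with an interval of -1.38 to 0.80.

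Wnt11, mostly a β-catenin-independent ligand, showed the second widest spread within conditions. At steady state it was 21.9, 33.8, 40.6 and 40.4 CPM. At day 1 the values were 2.06, 39.1 and 36.7 CPM, at day 4 34.8, 6.59 and 6.55 CPM, and at day 7 45.5, 12.2 and 35.5 CPM. At each day after TBI, libraries at the steady-state level stood beside libraries far under it. The count in day 1 replicate 1, 73 reads, was the lowest of any member in any library and is well above the floor. The log2 difference of Wnt11 at day 1 was -0.40, with an interval of -2.13 to 1.34 (fold 0.76), and without day 1 replicate 1 it was 0.15, the opposite sign.

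Sfrp2 had the widest spread of the set, and its conditions could hardly be compared for that reason. At steady state it was 105, 1276, 181 and 657 CPM, and at day 1 it was 10.9, 922 and 401 CPM. Day 4 gave 596, 104 and 99.5 CPM, and day 7 gave 938, 98.3 and 692 CPM. High and low libraries occurred in every condition, and the highest day 1 value was 84.5 times the lowest. The log2 difference from steady state was -0.32 at day 1 (interval -2.84 to 2.20), -1.06 at day 4 (interval -3.63 to 1.51) and 0.05 at day 7 (interval -2.44 to 2.55). On the linear scale the interval at day 7 runs from 0.184-fold to 5.87-fold, so changes within that range were not excluded. Without day 1 replicate 1, the log2 difference of Sfrp2 at day 1 was 0.26, and without day 4 replicate 1 that at day 4 was -2.36 with an adjusted p of 0.372 by edgeR.

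Sfrp1, of the same family, was even at steady state, with 66.7, 66.7, 84.4 and 64.1 CPM. After TBI its libraries spread on both sides of that level, at 12.4, 121 and 71.7 CPM on day 1, 104, 42.8 and 34.5 CPM on day 4, and 96.4, 33.9 and 68.8 CPM on day 7. The means nevertheless lay close together, between 60.4 CPM ± 37.9 (SD, n = 3) at day 4 and 70.5 CPM ± 9.36 (SD, n = 4) at steady state. All 6 log2 differences of Sfrp1 were between -0.23 and 0.14. Without day 1 replicate 1 they were 0.46 for day 1 against steady state, -0.68 for day 4 against day 1 and -0.54 for day 7 against day 1.

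Dkk3 is named for the Dickkopf family, although it is not known as a ligand of the Lrp coreceptors in the way Dkk1 is. It was 98.1, 660.3, 169 and 470.5 CPM at steady state. Day 1 gave 102, 310.3 and 203 CPM, day 4 gave 345, 238 and 297 CPM, and day 7 gave 384, 157 and 344 CPM. All 9 values after TBI lay inside the 6.73-fold range of the steady-state libraries. Its largest log2 difference was -0.77 at day 1 against steady state, with an interval of -2.01 to 0.48 and an adjusted p of 0.528 by edgeR, and without day 1 replicate 1 it was -0.44.

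Kremen1, the membrane receptor that binds Dickkopf proteins, had the lowest unadjusted p at day 4. At steady state it was 73.8, 53.5, 106 and 83.3 CPM. The day 1 libraries gave 15.8, 102 and 76.9 CPM and the day 4 libraries 60.5, 20.5 and 16.7 CPM. At day 7 it was 61.6, 72.1 and 99.7 CPM, each above every day 4 library, the other case without overlap, which 26.2% of all genes showed in this comparison. Day 4 against steady state gave a log2 difference of -1.29 with an interval of -2.51 to -0.07, an unadjusted p of 0.0404 and an adjusted p of 0.367 from edgeR's fit across all genes. Day 7 against day 4 gave 1.26 with an interval of -0.02 to 2.54, an unadjusted p of 0.0526 and an adjusted p of 0.274 from the same fit.

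Both values of Kremen1 rested on day 4 replicates 2 and 3, since day 4 replicate 1 lay within the steady-state range. Without day 4 replicate 1 the log2 difference of Kremen1 from steady state was -1.97, with an adjusted p of 0.172 by edgeR, and that of day 7 against day 4 was 1.96, with 0.0874. Without day 4 replicate 3 they were -0.97 and 0.95. The same 2 low libraries of day 4 were low for Sfrp2 and Wnt11, and both belong to the family of libraries whose column tags begin with k3, a tag the sources used here do not explain. PBS day 4 replicate 2 and day 7 replicates 1 and 2 carry that tag as well. In these, Sfrp2 was 1276, 938 and 98.3 CPM and Wnt11 33.8, 45.5 and 12.2 CPM. Day 1 replicate 1 carries a tag beginning with kk, as do PBS day 7 replicate 2 and day 7 replicate 3. Day 1 replicates 2 and 3 and day 4 replicate 1 carry a tag of neither kind. Within days 1 and 4 the low libraries thus coincide with the tags, and the part of the tag cannot be told apart.

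Rspo3, an R-spondin that strengthens Wnt signals, was 6.97, 18.5, 7.96 and 24.1 CPM at steady state. It was 4.44, 12.3 and 10.9 CPM at day 1, 10.3, 7.20 and 5.78 CPM at day 4, and 18.0, 8.05 and 10.7 CPM at day 7. The steady-state libraries themselves lay 3.46-fold apart, and those of each day overlapped them. Its largest log2 difference was -0.90 at day 4 against steady state, with an interval of -1.96 to 0.17 and an adjusted p of 0.444 by edgeR.

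**Figure D2:**
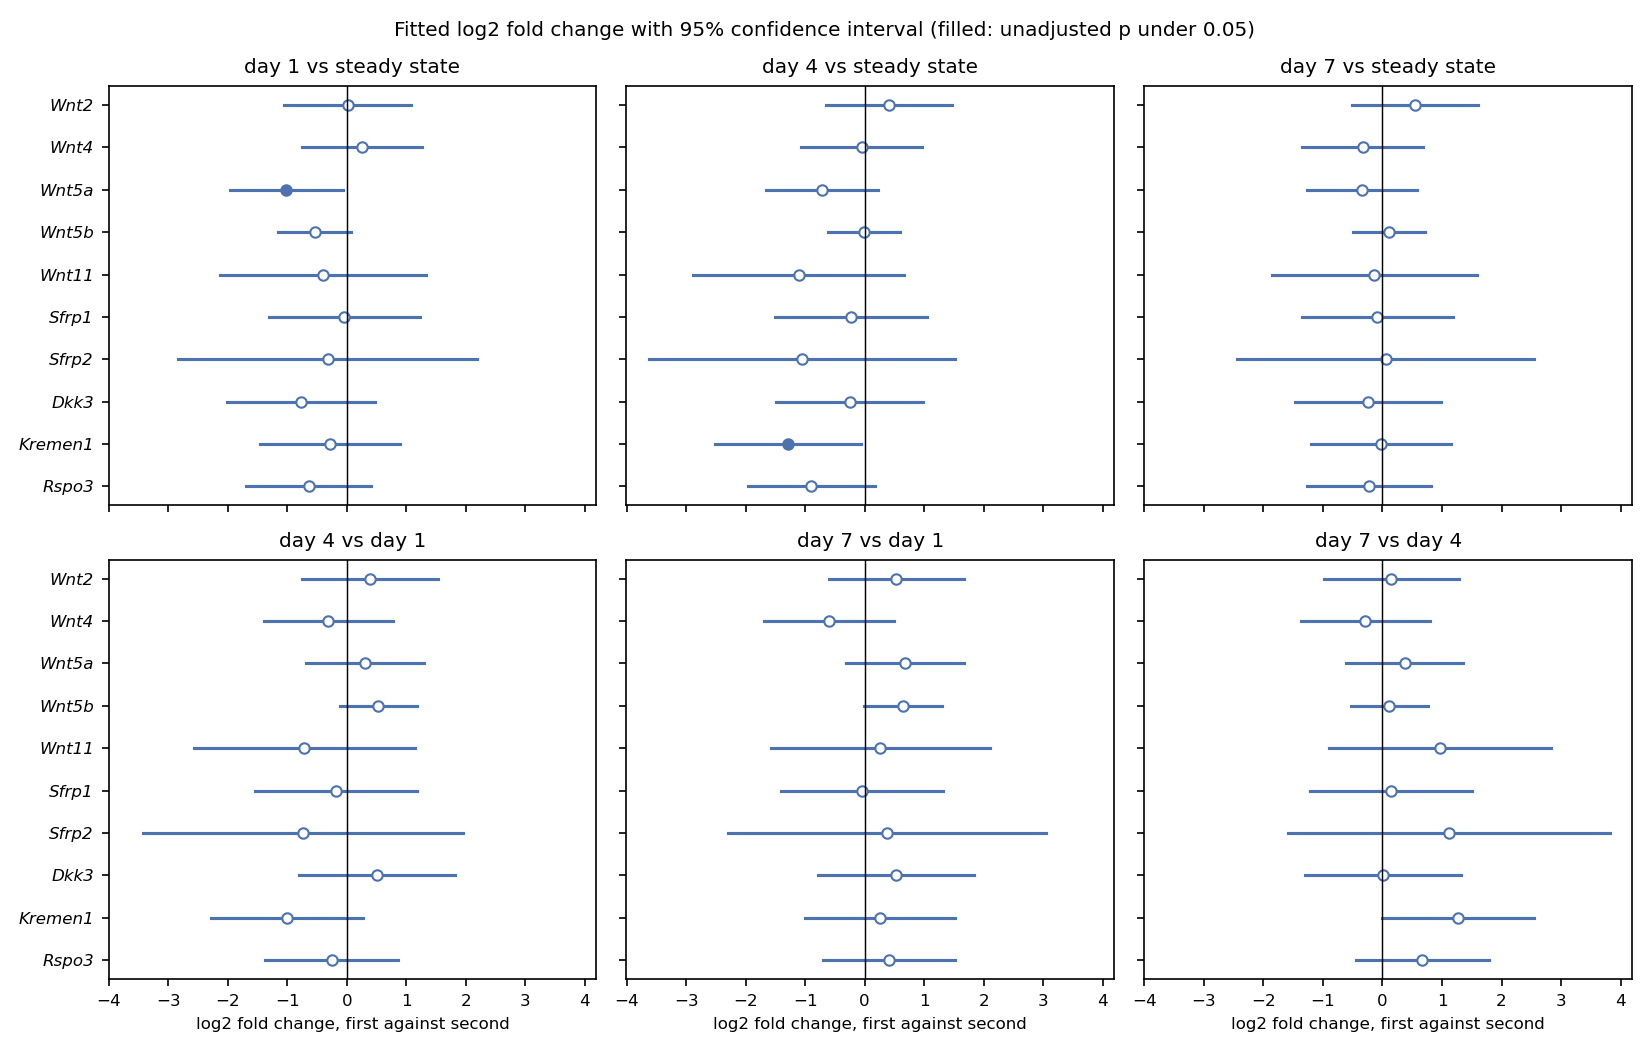
Fitted log2 fold change of each member in each of the 6 comparisons (dot, first condition against second) with its 95% confidence interval (line), filled where the unadjusted p was under 0.05. Wnt5a at day 1 and Kremen1 at day 4, both against steady state, are filled, and the intervals of Sfrp2 are the widest in every panel.

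As a set, the members were counted in each comparison beside all genes. At day 1 against steady state, 2.35% of all genes passed the adjusted threshold and 17.2% had an unadjusted p under 0.05, and of the members 0 and 1 (Wnt5a) did. The median log2 difference of the members was -0.36 against -0.10 for all genes, with 8 members below 0 and 2 above. That split followed single libraries: without day 1 replicate 1 it was 4 below and 6 above, and without day 1 replicate 2 all 10 were below. The libraries of both conditions overlapped for all 10 members, and did not overlap for 15.8% of all genes.

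Day 4 against steady state was similar, with 0.29% of all genes past the adjusted threshold and 13% at an unadjusted p under 0.05, and of the members 0 and 1 (Kremen1). The median log2 difference of the members was -0.48 against -0.13 for all genes, and 9 of 10 were below 0, Wnt2 being the exception. Without PBS day 4 replicate 2 the median was -0.25 with 6 below 0, and with DESeq2 7 were below 0. The libraries of these conditions did not overlap for 14.7% of all genes and for 0 members. At day 7 against steady state 0.005% of all genes, 1 in number, passed the adjusted threshold. An unadjusted p under 0.05 was found for 13.5% of genes and for 0 members, and 7.49% of genes and 0 members had libraries that did not overlap. The median of the members was then -0.11, and 7 of 10 were below 0, but without day 7 replicate 2 the median was 0.18 with 9 above 0, and without PBS day 7 replicate 2 the split was 5 to 5.

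Between the days after TBI, the share of all genes that passed was 1.43% for day 4 against day 1, 8.13% for day 7 against day 1 and 3.9% for day 7 against day 4, with 0 members in each. At an unadjusted p under 0.05 the shares were 13.7%, 23.9% and 18.7%, again with 0 members. The libraries of days 7 and 1 did not overlap for 27.5% of all genes and for 0 members. The median log2 difference of the members was -0.22 for day 4 against day 1, 0.39 for day 7 against day 1 and 0.26 for day 7 against day 4. Without day 1 replicate 1 the first of these was -0.64 and the second -0.06, with 5 members above 0 and 5 below for day 7 against day 1 in place of 8 and 2. Without day 1 replicate 2, 8 members were above 0 for day 4 against day 1, in place of 4. In the day 7 against day 4 comparison 9 of 10 members were above 0, but without day 7 replicate 1 the split was 5 to 5. These comparisons share libraries with each other, so their splits are not separate observations.

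What the members did show was a shared variation among libraries of 1 condition, which was not particular to them. For this, the log2(CPM + 0.5) of each library was taken as a deviation from the mean of its condition. In day 1 replicate 1, all 10 members were below the mean of their condition, and in day 1 replicates 2 and 3 none was. All 10 were also below it in PBS day 1 replicate 2 and in day 7 replicate 2, and none was in day 4 replicate 1. Over the 11459 genes with a mean of at least 5 CPM, the share below was between 42.1% and 59.6% in every library. The highest share was that of PBS day 1 replicate 2. Scaling to normalized library sizes evens out shifts of a whole library, so this share cannot show whether there was one. The first component described above held 49.6% of the variance within conditions over these 11459 genes. Some other pathway genes also spread widely at day 1, such as Fzd1 (23.0 to 337 CPM) and Wnt9a (5.26 to 45.4 CPM). Others did not, such as Wls (457 to 565 CPM).

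**Figure D3:**
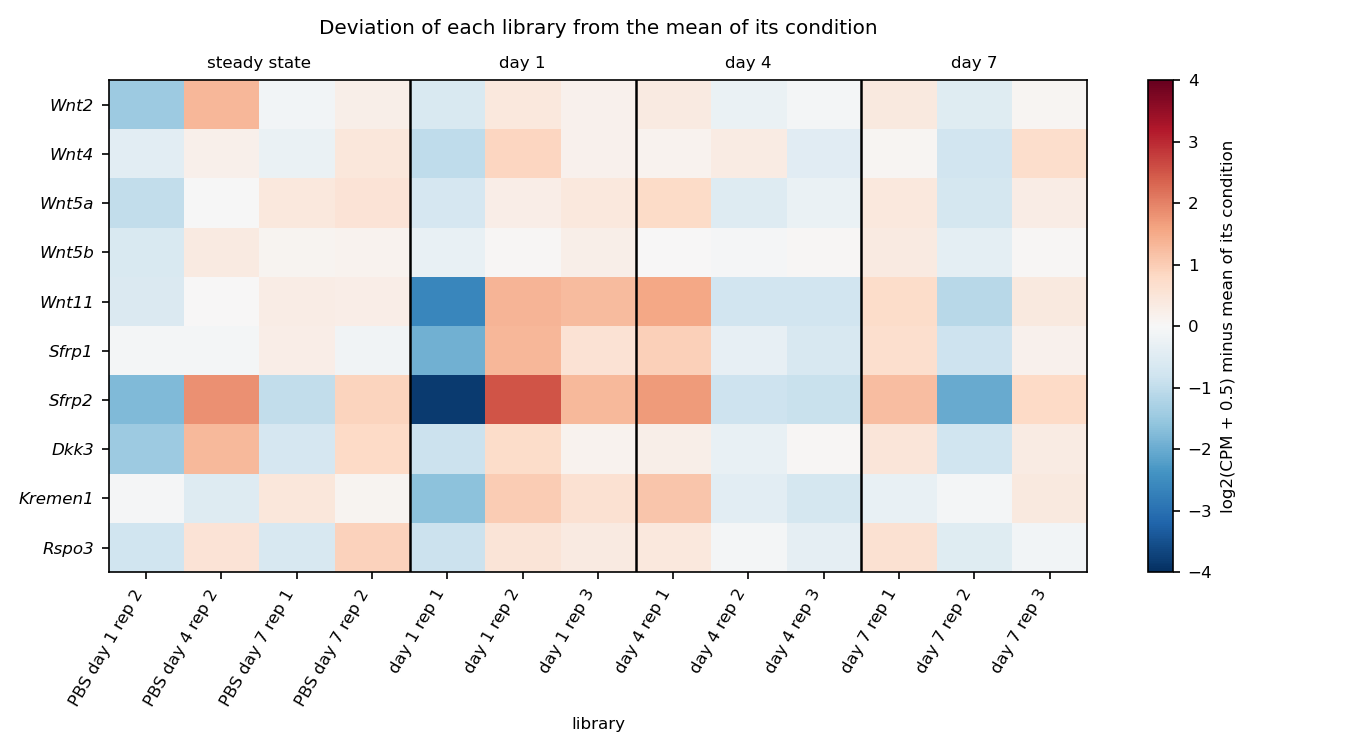
Deviation of log2(CPM + 0.5) from the mean of its condition for each member (rows) in each library (columns), blue below and red above. The columns of PBS day 1 replicate 2, day 1 replicate 1 and day 7 replicate 2 are below 0 for all 10 members, and Sfrp2 spans the largest range, from -3.82 to 2.51.

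Across the 13 libraries, the deviations of all 45 pairs of members correlated positively, with Pearson's r from 0.20 to 0.96 and a median of 0.72. The median over all pairs of the 11459 genes was 0.00025, 50.02% of those pairs were above 0, and 10.5% exceeded the median of the members. The points are the same 13 libraries throughout, with deviations that sum to 0 in each condition, so these r values describe the libraries and carry no p. Wnt11 and Sfrp1 were the closest pair (0.96), and Wnt2 and Dkk3 came next (0.93). Wnt11 and Sfrp2, whose upstream sequences are shown above, had an r of 0.905. The loosest pairs were those of Kremen1 with Wnt5b (0.20), Wnt2 (0.25) and Dkk3 (0.26).

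Sfrp2 stood out even among all genes. The SD of its log2 level within conditions was 2.14, larger than that of 99.99% of the 19984 genes. On the first component named above, with its sign set so that Sfrp2 was positive, it had the highest positive loading of the 11459 genes. Genes were not scaled for this component, so a wide spread by itself favours a large loading. Wnt11 followed with an SD of 1.34, larger than 99.4% of genes, and a loading rank of 28. At the other end, the SD of Wnt5b was 0.33, larger than 40.6% of genes. The deviations of Wnt11 correlated with the first component at r = 0.99, those of Sfrp1 at 0.97 and those of Sfrp2 at 0.90, and those of Wnt5b at 0.51.

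Values of base composition and of markers of other cells are given beside this component. Spearman's rho between the deviation of a library and GC content over genes was -0.16 in day 1 replicate 1 and 0.23 and 0.28 in day 1 replicates 2 and 3, and Wnt11 had a GC content of 59.8%, higher than 96.1% of genes. With the trend on GC content removed from each library, the SD within conditions was 0.99 for Wnt11 and 2.10 for Sfrp2. The fibroblast collagen gene Col1a1 ran from 1122 to 26605 CPM over the libraries, while Pdgfra, which marks the same cells, ran from 616 to 1282 CPM and was highest in day 1 replicate 1, the lowest library on the component. The summed fibroblast markers were 32592 CPM in day 1 replicate 1 against 89313 and 47899 CPM in day 1 replicates 2 and 3. Epcam, a marker of TECs, was 14.03 CPM in day 1 replicate 1 against 103 and 127 CPM in those libraries, and 24.4 and 25.5 CPM in day 4 replicates 2 and 3 against 99.8 CPM in day 4 replicate 1. Over all conditions it followed the column tags, at 14.03 to 40.1 CPM in libraries tagged k3 or kk and 99.8 to 155 CPM in the rest. TEC content and the tag therefore cannot be told apart in the values of Epcam. The summed TEC markers did not follow Epcam at day 1, with 2164 CPM in replicate 1 against 1610 and 3136 CPM in replicates 2 and 3. At day 4 they were 4497 and 3250 CPM in replicates 2 and 3 against 5097 CPM in replicate 1, a smaller gap than that of Epcam. The highest Col1a1 and the highest Sfrp2 were both in PBS day 4 replicate 2, and the part of base composition, fibroblasts and TECs in the variation of the members was not tested.

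Genes whose levels over the 13 libraries were most like those of a member were found among 11458 genes with a mean of at least 5 CPM, by Pearson's r of log2(CPM + 0.5), again without a p. For Sfrp2 these were Scara3 (0.99), Pcdhgb1 (0.97) and Lrrn2 (0.96), and for Dkk3 they were Enpp3 (0.98), Mmp23 (0.97) and Aig1 (0.96). Kremen1 was nearest to Top2b, Senp6 and Btaf1, all at 0.99, and Wnt11 to Tmem62, Podxl2 and Fam149a, also at 0.99. Sfrp1 was nearest to Scarf2, Siah1a and Rgmb (all 0.98). Wnt5a was nearest to Tgfbr3 (0.96), Cavin1 (0.96) and Bnc1 (0.95), the last a gene known from mesothelial cells, and Rspo3 to Rbp4 (0.95), Itgb5 (0.95) and Pofut2 (0.94). The nearest genes of Wnt5b were Zfp395 (0.95), Fig4 (0.92) and Csdc2 (0.91), those of Wnt2 were C4b (0.92), Rhoa (0.91) and Sdsl (0.90), and those of Wnt4 were Lgi2 (0.89), Marveld1 (0.88) and Fosl2 (0.87).

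By role, the 5 ligands summed to 17.2 to 59.3 RPKM per library, and Sfrp1, Sfrp2 and Dkk3, here called the soluble antagonists by the names of their families, to 38.3 to 804 RPKM. Ligands averaged 41.6 RPKM ± 16.7 (SD, n = 4) at steady state, 33.1 RPKM ± 13.98 (SD, n = 3) at day 1, 38.0 RPKM ± 12.6 (SD, n = 3) at day 4 and 46.0 RPKM ± 15.8 (SD, n = 3) at day 7. The antagonists averaged 378 RPKM ± 326 (SD, n = 4), 283 RPKM ± 256 (SD, n = 3), 225 RPKM ± 154 (SD, n = 3) and 371 RPKM ± 243 (SD, n = 3) in the same order. The ranges of all 4 conditions overlapped for both sums.

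In every library the antagonist sum, which includes Dkk3, was the larger. Its ratio to the ligand sum was 4.97, 13.7, 3.69 and 9.77 at steady state and 2.23, 12.7 and 6.74 at day 1. It was 7.68, 4.39 and 4.43 at day 4 and 9.65, 3.52 and 8.78 at day 7. The lowest ratio was that of day 1 replicate 1, where Sfrp2 was also lowest and Dkk3 made up 79.4% of the antagonist sum. Without Dkk3 the order reversed in that library alone, with Sfrp1 and Sfrp2 at 7.90 RPKM against 17.2 RPKM for the ligands. Both sums hold members only, and leave out Wnt9a, Wnt2b and Sfrp4, so the ratio depends on the genes chosen. Wnt2 was the largest part of the ligand sum in 11 of the 13 libraries, the exceptions being PBS day 1 replicate 2 (Wnt11) and PBS day 7 replicate 1 (Wnt5a).

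**Figure D4:**
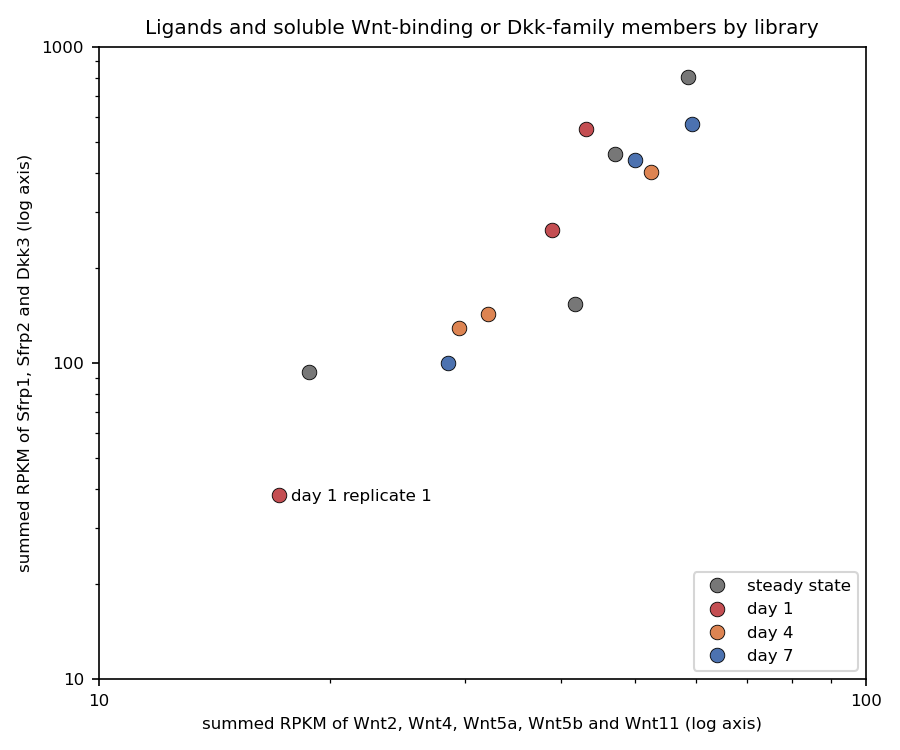
Summed RPKM of the 5 ligands (horizontal, log axis) against that of Sfrp1, Sfrp2 and Dkk3 (vertical, log axis), 1 dot per library, coloured by condition. Each condition has libraries low and high on both axes, and day 1 replicate 1 is lowest on both, at 17.2 and 38.3 RPKM.

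The rest of the pathway was taken from lists of 81 other genes, of which 74 passed the filter. Changes past the threshold were found for 7 genes in 10 tests, all but 1 of them between days after TBI. At day 1 against steady state 1 of the 74 genes rose, which is 1.35%, and at day 4 and day 7 against steady state none passed by edgeR, where 10 and 7 had an unadjusted p under 0.05. Day 4 against day 1 gave none by edgeR and 6 at an unadjusted p under 0.05, while day 7 against day 1 gave 3 that rose and 3 that fell (8.11%), and day 7 against day 4 gave 3 that rose (4.05%). These shares lie near or below those of all genes given above for the same comparisons.

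DESeq2 called more genes, and those it adds are named here after their values were seen. At day 1 it called 5, or 6.85% of the pathway genes it tested against 7.5% of all genes (Draxin, Lef1, Tcf7, Wnt10b and Wnt2b). At day 4 it called 4, or 5.48% against 3.36% (Lef1, Tcf7, Wnt10b and Wnt8b), and at day 7 also 4, or 5.41% against 5.42% (Dkk1, Tcf7, Wnt10a and Wnt3). Between days, it called 2 for day 4 against day 1 (Wnt8b and Wnt9b), or 2.7% against 4.75% of all genes. Day 7 against day 1 gave 11, or 14.9% against 14.7%, which were the 6 of edgeR with Lgr4, Nkd2, Wnt2b, Wnt7b and Wnt8b, and day 7 against day 4 gave 4, or 5.41% against 9.61%, which were the 3 of edgeR with Sost.

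Of the other Wnt ligands, 11 of 14 passed the filter, the most abundant being Wnt9a (37.9 CPM on average) and Wnt2b (15.8 CPM). Wnt3 was 0.57, 0.33 and 0.42 CPM at day 1 and 0.04, 0.06 and 0.05 CPM at day 7, and fell by 3.003 on the log2 scale ± 0.78 (SE) at day 7 against day 1 (adjusted p 0.0339 by edgeR), from 47 to 7 counts over the 3 libraries. Wnt8b had 116, 13, 65 and 7 counts at steady state, no counts in the 3 day 4 libraries and 8, 154 and 101 at day 7. Pooled over the libraries it was at least 82.5-fold higher at day 7, taking 3 counts over the day 4 libraries as the floor, with an adjusted p of 0.0276 by edgeR, and with a thymocyte score in the model its adjusted p was 0.589. The median log2 difference of the list was -0.44 at day 7 against day 1 and 0.87 at day 7 against day 4, beside 0.05 and 0.11 for all genes.

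Of the other secreted modulators, 13 of 16 passed the filter, led in level by Sfrp4 (83.5 CPM) and the R-spondin Rspo1 (52.9 CPM). Draxin, a secreted inhibitor that binds Lrp6, was 1.93, 2.25, 2.41 and 2.28 CPM at steady state, 4.69, 8.68 and 4.75 CPM at day 1, and 3.10, 1.64 and 2.49 CPM at day 7. It rose at day 1 against steady state by a log2 difference of 1.44 ± 0.32 (SE), with an adjusted p of 0.0328 by edgeR. At day 7 against day 1 it fell by 1.32 on the log2 scale ± 0.35 (SE), with an adjusted p of 0.0368. In both comparisons the libraries were separate.

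Dkk1 and Dkk2, both Dickkopf proteins that bind Lrp coreceptors, went in opposite directions from day 1 to day 7. Dkk2 was 31.0, 18.0 and 21.6 CPM at day 1 and 65.9, 76.9 and 45.1 CPM at day 7, a rise of 1.41 on the log2 scale ± 0.38 (SE), with an adjusted p of 0.0403 by edgeR. Dkk1 had 23, 6 and 34 counts at day 1 and 0, 2 and 0 at day 7. Pooled, its level at day 1 was 40.5 times that at day 7, with a 95% interval of 10.7 to 342 that covers counting error only, and its adjusted p was 0.0239 by edgeR. Against steady state neither Dkk1 nor Dkk2 passed at any day by edgeR, while DESeq2 called Dkk1 at day 7.

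**Figure D5:**
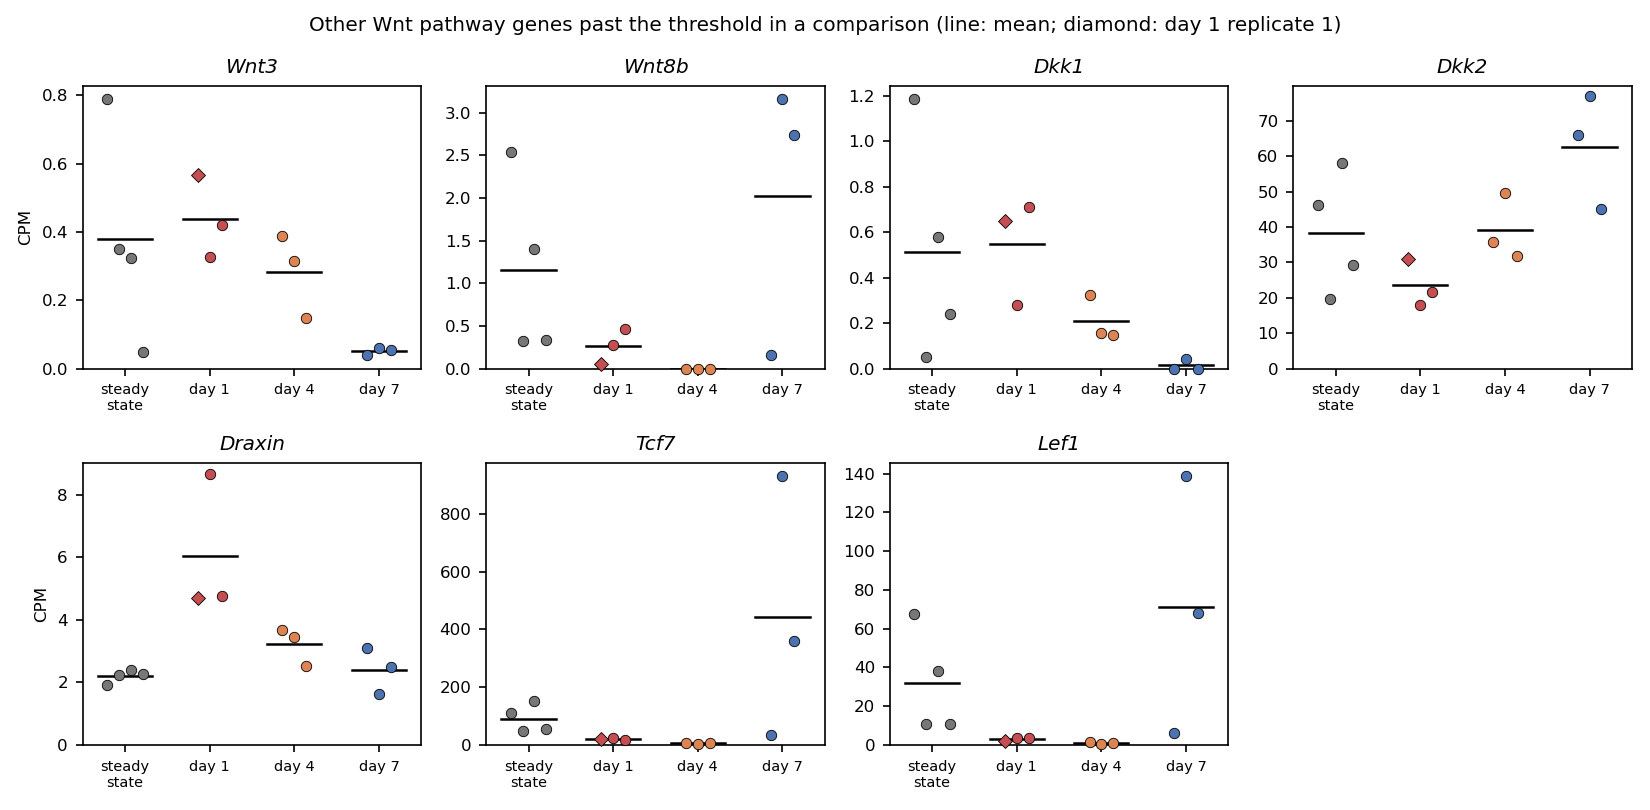
CPM of the 7 other Wnt pathway genes past the threshold in a comparison, by library and condition, with the condition mean as a line and day 1 replicate 1 as a diamond. Dkk1 and Wnt3 are lowest at day 7, Dkk2 is highest there, Draxin is highest at day 1, and Tcf7 and Lef1 are highest in day 7 replicate 2.

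In the list of intracellular transducers all 17 genes passed the filter, and those that rose were Tcf7 and Lef1, the Tcf/Lef factors known from thymocytes. At day 1 Tcf7 was 20.1, 23.9 and 18.6 CPM, at day 4 5.55, 4.69 and 7.09 CPM and at day 7 34.4, 931 and 360.1 CPM. It rose at day 7 by a log2 difference of 4.41 ± 0.87 (SE) against day 1 (adjusted p 0.0112 by edgeR) and of 6.26 ± 0.95 (SE) against day 4 (adjusted p 0.00796). Lef1 rose likewise by 4.57 ± 0.99 (SE) and 6.04 ± 1.07 (SE), with adjusted p of 0.0158 and 0.0127 by edgeR. The summed thymocyte markers moved with them, from 135 to 164 CPM at day 1 and 28.1 to 43.0 CPM at day 4 to 247 to 5670 CPM at day 7. At steady state those markers summed to 272 to 913 CPM. With a thymocyte score in the model, the log2 differences of Tcf7 and Lef1 at day 7 against day 1 were -0.15 and -0.03.

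No gene for secretion, reception or response passed in any comparison by edgeR. Wls, which carries Wnt proteins to the cell surface, averaged 577 CPM, and Porcn, which attaches their lipid, 10.6 CPM. Among 10 Frizzled genes, 9 passed the filter, with Fzd1 (171 CPM) and Fzd4 (107 CPM) at the highest levels. All 14 genes of the coreceptor list passed it, with Vangl1 (52.2 CPM) and Ror1 (51.3 CPM) highest, and all 12 of the target list did, with Tnfrsf19 (71.98 CPM) and Myc (65.4 CPM) highest. The median log2 difference of the target list was -0.49 at day 1 against steady state and 0.49 at day 7 against day 1, beside -0.10 and 0.05 for all genes. Of the 34 genes tested in these lists, 1 to 3 had an unadjusted p under 0.05 by edgeR in each of the 6 comparisons. DESeq2 called 2 of them, Lgr4 and Nkd2, at day 7 against day 1, named after their values were seen, and 0 in the other comparisons.

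Each of the 10 calls named above was lost without some single library, with adjusted p by edgeR of at most 0.157. The rise of Draxin at day 1 was lost without PBS day 1 replicate 2, either PBS day 7 library, day 1 replicate 2, day 4 replicate 2 or 3, or day 7 replicate 3 (0.0509 to 0.157). Its fall at day 7 was lost without any day 1 library, day 4 replicate 2 or 3, or day 7 replicate 2 or 3 (0.0506 to 0.142). The call of Dkk2 was lost without any 1 of the 9 libraries after TBI (0.0506 to 0.138), that of Dkk1 without day 1 replicate 1 or 3 or any day 7 library (0.0513 to 0.0803), and that of Wnt3 without any library of day 1 or day 7 or day 4 replicate 2 (0.0525 to 0.102). For Wnt8b they were day 4 replicates 2 and 3 and day 7 replicates 2 and 3 (0.0701 to 0.128). The rise of Lef1 over day 1 was lost without any day 1 library or day 7 replicate 2 (0.0563 to 0.0735), and that of Tcf7 without day 1 replicate 1 (0.0555). Over day 4, both were lost without day 4 replicate 2 or 3 (Lef1 0.0825 to 0.101, Tcf7 0.0635 to 0.0834).

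The other alternatives left out no single library, though some fitted only part of the conditions. Under them, the call of Draxin at day 1 was lost in 4 of 9 (adjusted p by edgeR 0.0628 to 0.968, the highest with scaling to fibroblast markers). Its fall at day 7 was lost in 6 of 10 (0.073 to 0.842). The call of Dkk2 was lost under 5 of 10 alternatives (0.0612 to 0.732), that of Wnt3 under 3 of 9 (0.0869 to 0.27) and that of Dkk1 under 2 of 9 (0.0637 to 0.0995). The calls of Tcf7, Lef1 and Wnt8b were each lost under 2, the thymocyte score and the replicate block.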

How the data were processed

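CD45- thymic libraries were compared as 13 columns of raw counts per gene. Per the labels and methods, the authors used Trimmomatic 0.38 for trimming, STAR 2.7.0e for alignment to GRCm38.p5 and featureCounts 1.6.3 for counting, and the deposited counts are not normalized. Here, edgeR 4.0.16 (R 4.3.3) fitted all libraries together, with a term for condition, TMM normalization, filterByExpr() (minimum count 10) and the quasi-likelihood F-test. p-values were adjusted by Benjamini-Hochberg over all 19984 genes kept, and 0.05 or less counted as passing. CPM uses normalized library sizes. Standard errors are the log2 difference over the square root of F.

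The members and lists were chosen with earlier results of these data known. All members were named, with pathway genes past the threshold (up to 4 per list and comparison) or, where none passed, the 2 highest in mean CPM, and 3 genes most like each member. The alternatives numbered 23, among them DESeq2 1.42.0. Of these steps only the edgeR fit was tested on simulated counts, which were drawn independently for each gene and held no variation shared between genes.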

Additional observations from a re-analysis of the deposited data

Results flagged for a closer look

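Sfrp1 at steady state had 1 library far from the other three: 84.4 CPM in PBS day 7 replicate 1 against 64.1, 66.7 and 66.7 CPM, a Dixon's ratio of 0.87, above the 95% critical value for 4 samples. Of the 10 members examined at steady state it was the only one past that value, and chance gives about 1 in 20 groups.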

How the results depend on the processing

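Of 23 alternatives, 13 left out 1 library each, and over all of them the members gave 1350 log2 differences, of which 117 changed sign, 2 of them among the 542 whose size was 0.5 or more. Fits without 1 library were counted in every comparison, also in those that do not use that library, where values moved little. The share that changed sign is therefore no measure of how stable the differences were. The count of members past the threshold was 0 in every comparison under every alternative, with 1 exception: with tag family as a covariate, 1 member, Kremen1, passed at day 7 against day 4 (adjusted p 0.0446 by edgeR), and the cause was not tested. Without single libraries the count stayed between 0 and 0. Without 1 library, the log2 difference of Sfrp1 at day 4 against steady state ran from -0.749 (without day 4 replicate 1) to 0.057 (without day 4 replicate 3). With a thymocyte score added to the model, the log2 differences at day 7 were -0.0264 against day 1 and -0.735 against day 4 for Lef1, and -0.154 and -0.426 for Tcf7.

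The counts over all genes moved more. DESeq2 called 1381, 644 and 1081 genes at days 1, 4 and 7 against steady state and 949, 2940 and 1919 for day 4 against day 1, day 7 against day 1 and day 7 against day 4, where edgeR called 469, 58, 1, 285, 1625 and 779. Without the filter the counts were 555, 250, 627, 354, 2004 and 1265 in the same order, and without day 7 replicate 1 there were 622 at day 7 against steady state. Scaling to fibroblast markers moved the median of all genes to -0.29, -0.46 and -0.12 at days 1, 4 and 7 against steady state.

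With the replicate number as a block over the 9 libraries after TBI, 0 members passed, with a lowest adjusted p of 0.342 by edgeR. Over all genes this block gave 56, 640 and 0 calls for day 4 against day 1, day 7 against day 1 and day 7 against day 4. Deviations of same-numbered libraries correlated at -0.91 to 0.34. With 3 libraries per day centred on their mean, these values cannot settle whether the numbers mark a pairing. No paired fit with steady state could be made because its columns carry no label numbers. The lowest count of a member was 73, and whether depth limited its tests was not tested, whereas Dkk1, Wnt3 and Wnt8b rest on few counts.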
